A study of Mus musculus with 12 samples.

Results

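Shmt1, Soat2, Kif26a, Cbll1, Snapc1 and Bfsp1 are 6 of the 20282 autosomal genes measured for DNA copy number in 12 mouse tumours, and were chosen because their ratios differed between renal cell carcinomas and malignant lymphomas beyond the level of the chromosome around them. They are read by 15 of the 161460 autosomal probes on the array. Each value below is a local excess, the log2 ratio of tumour to reference DNA at a probe minus the median log2 ratio of the probes within 1 Mb outside the gene on the same array, and a gene's value is the mean over its probes. Since the carcinoma against lymphoma contrast chose the genes, their differences in it are given as a description, with no test.

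The tumours came from C57BL/6 mice that lacked Mutyh, a DNA glycosylase that removes adenine paired with oxidised guanine, or that carried it as wild type, and the labels do not say how the gene was disrupted. Treated mice had received ferric nitrilotriacetate (Fe-NTA), an iron chelate that damages renal tubules by oxidation, through intraperitoneal injections on 5 occasions a week for 12 weeks, at doses of 3 mg iron per kg in week 1 and 5 mg per kg over another 11 weeks, and were killed at about 120 weeks. The 4 renal cell carcinomas (RCC) all came from treated mice, 3 Mutyh knockouts (KO) and 1 wild type (WT). Of the 8 malignant lymphomas (ML), 5 came from treated mice (2 KO and 3 WT) and 3 from untreated mice (1 KO and 2 WT). Each tumour DNA carried the red dye Cy5 on 1 array, and every array shared a green Cy3 reference, normal kidney DNA of C57BL/6 mice. The tumours are named by genotype and animal, as in carcinoma KO1080, and nothing in the labels says more of how they were sampled, so the spread given is that between these tumours. DNA carries no expression, so markers of kidney or lymphoid cells were not measured, and neither was the share of tumour cells in each sample.

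The targeted gene checked the labels: the Mutyh probe at chr4:116490496-116490555 (mm9) had log2 ratios between -3.15 and -2.42 in the 6 knockout tumours, and between -0.74 and 0.14 in the 6 wild types. The arrays lay on 3 slides. Slide 1 held the 4 carcinomas, slide 2 the treated lymphomas KO1077, KO1111, WT1113 and WT1114, and slide 3 the untreated lymphomas KO1414, WT1405 and WT1420 with the treated WT1121. Slide and tumour type therefore cannot be told apart for the carcinomas. The lymphomas WT1113 and WT1114 had the most similar profiles of any pair, with a Pearson correlation of 0.74 over 2243 bins of 1 Mb outside chromosome 4. Agilent's measure of noise, the spread of the differences between neighbouring probes, lay between 0.115 and 0.169 over the arrays. Of the 180 spots of these genes, 0 were marked as outliers or saturated, and 2 were not well above background in at least 1 colour. Each probe had 1 spot on an array, so every group value is only as precise as the number of arrays allows.

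Comparative genomic hybridisation reads the amount of tumour DNA against reference DNA at short probes, so the loss of a chromosome arm lowers every probe along it, whereas a deletion inside a gene lowers only the probes it covers. The 6 genes belong to unrelated pathways. Shmt1 encodes the cytosolic serine hydroxymethyltransferase, which passes a carbon unit from serine to tetrahydrofolate, and Soat2 a sterol O-acyltransferase that esterifies cholesterol in intestine and liver. Kif26a encodes an atypical kinesin that limits growth factor signalling in enteric neurons of the mouse. Cbll1, also called Hakai, encodes a ubiquitin ligase of E-cadherin that is also a component of the RNA m6A methyltransferase complex, Snapc1 a subunit of the complex that activates small nuclear RNA genes, and Bfsp1 filensin, a beaded filament protein of the eye lens.

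In each of the 6 genes the probe with the largest difference between the tumour types, in either direction, is called the leading probe here. It carried most of the difference in the genes other than Snapc1, where the 2 probes differed by -0.33 and -0.13. The leading probes are shown because the shifts rest on them, followed by the companion probes of Shmt1 and Soat2, which lie in the same genes and shifted little or not at all. G and C are in capitals, since base composition governs hybridisation strength. Letters are as the scanner files list them. The files give no strand, and the position of each probe relative to exons was not determined here. Positions are in mm9.
Shmt1 leading probe, chr11:60609492-60609551: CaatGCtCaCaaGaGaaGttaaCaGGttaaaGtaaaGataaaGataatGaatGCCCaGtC
Soat2 leading probe, chr15:101990724-101990783: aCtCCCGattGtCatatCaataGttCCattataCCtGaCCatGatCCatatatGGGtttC
Kif26a leading probe, chr12:113414713-113414767: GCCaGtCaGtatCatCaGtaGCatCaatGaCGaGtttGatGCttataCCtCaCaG
Cbll1 leading probe, chr12:32176138-32176197: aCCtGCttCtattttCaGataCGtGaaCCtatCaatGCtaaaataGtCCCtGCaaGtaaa
Snapc1 leading probe, chr12:75075282-75075341: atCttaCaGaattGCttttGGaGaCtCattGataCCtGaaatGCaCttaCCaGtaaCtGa
Bfsp1 leading probe, chr2:143688104-143688163: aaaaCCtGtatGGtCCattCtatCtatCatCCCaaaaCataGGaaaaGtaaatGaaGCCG
Shmt1 companion probe, chr11:60620816-60620875: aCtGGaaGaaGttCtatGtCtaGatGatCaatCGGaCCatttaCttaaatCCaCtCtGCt
Soat2 companion probe, chr15:101982591-101982650: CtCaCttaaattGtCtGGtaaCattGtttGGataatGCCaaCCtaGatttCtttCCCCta

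Shmt1, on chromosome 11 between 60609492 and 60620875, had a gene-level local excess of -0.90 ± 0.14 (SD, n = 4) in carcinomas and 0.07 ± 0.05 (SD, n = 8) in lymphomas, a difference of -0.98. The 175 flanking probes averaged 0.03 in carcinomas and 0.04 in lymphomas. At the leading probe the carcinomas KO1080, KO1097, KO1134 and WT1179 read -1.41, -1.62, -2.0 and -1.76, against lymphomas from -0.16 to 0.35 with a median of -0.01. All carcinomas lay below all lymphomas there, the wild-type carcinoma inside the range of the knockouts. The companion probe in the same gene differed by -0.22, and the nearest probes outside the gene, 7.21 kb before and 10.2 kb after it, differed by 0.01 and -0.02. The companion probe was among the dimmest on the array, at percentile 0.372 of signal, so it is a weak guide to the rest of the gene.

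Soat2, on chromosome 15 between 101982591 and 101990783, had a local excess of -0.63 ± 0.10 (SD, n = 4) in carcinomas and -0.09 ± 0.08 (SD, n = 8) in lymphomas, a difference of -0.54. Its leading probe read -0.89, -1.05, -1.54 and -1.39 in KO1080, KO1097, KO1134 and WT1179, and between -0.28 and 0.07 in lymphomas, with a median of -0.07. All carcinomas again lay below all lymphomas. The flank was near the array median in the knockout carcinomas, at 0.01, 0.11 and 0.12, and at -0.73 in WT1179, so the whole gene of WT1179 read -1.43 before the flank was subtracted. The companion probe differed by 0.03 between the tumour types, and the nearest probes outside the gene by 0.21 and 0.05.

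Kif26a, on chromosome 12 between 113392622 and 113414767, had a local excess of -0.51 ± 0.09 (SD, n = 4) in carcinomas and 0.07 ± 0.04 (SD, n = 8) in lymphomas. Its leading probe read -1.35, -1.24, -1.83 and -1.33 in KO1080, KO1097, KO1134 and WT1179, against 0.11 to 0.32 in lymphomas, and the groups did not overlap. The other probes of the gene differed by -0.09 and 0.00. Before the flank was subtracted the gene differed by -1.01, of which -0.43 was shared with the 168 flanking probes. The flank was low in KO1080, KO1097 and WT1179, at -0.43, -0.61 and -0.77, and not in KO1134, at 0.09. KO1134 had the lowest excess of the carcinomas at the leading probe. Before the flank was subtracted it read -1.74 there, the highest of the carcinomas, so its place as the lowest in excess came from its flank.

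Cbll1 and Snapc1 lie on the same chromosome, and much of their difference was that of the region: the ratios before subtraction differed by -0.94 at Cbll1 and -0.75 at Snapc1, those of their flanks by -0.51 and -0.52. Cbll1, between 32176138 and 32183113, kept a local excess of -0.15 ± 0.10 (SD, n = 4) in carcinomas and 0.28 ± 0.16 (SD, n = 8) in lymphomas. Its leading probe read -0.41, -0.25, -0.23 and 0.06 in KO1080, KO1097, KO1134 and WT1179, and from 0.01 to 0.82 with a median of 0.54 in lymphomas. The groups overlapped at that probe, with WT1179 above KO1414, though not at the gene level, where no share over all genes was counted. Snapc1, between 75075282 and 75083433, had 0.07 ± 0.20 (SD, n = 4) in carcinomas and 0.30 ± 0.25 (SD, n = 8) in lymphomas, a difference of -0.23 that was smaller than the SD of the lymphomas. Its leading probe read 0.07, 0.01, 0.01 and 0.80 in KO1080, KO1097, KO1134 and WT1179, and from 0.10 to 1.21 in lymphomas.

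Bfsp1, on chromosome 2 between 143659094 and 143688163, was the gene with the higher ratio in carcinomas, with a local excess of 0.25 ± 0.05 (SD, n = 4) against -0.26 ± 0.17 (SD, n = 8) in lymphomas. Its leading probe differed by 1.83, which ranked 1 from the highest over all autosomal probes. The carcinomas KO1080, KO1097, KO1134 and WT1179 read 1.09, 0.98, 0.61 and 1.01 there. The lymphomas fell into the groups of their slides: KO1077, KO1111, WT1113 and WT1114 on slide 2 read -0.28, -0.19, -0.10 and -0.21, and KO1414, WT1121, WT1405 and WT1420 on slide 3 read -1.27, -1.34, -1.59 and -2.29. The other 3 probes of Bfsp1 differed by 0.17, 0.05 and -0.01 between the tumour types.

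**Figure D1:**
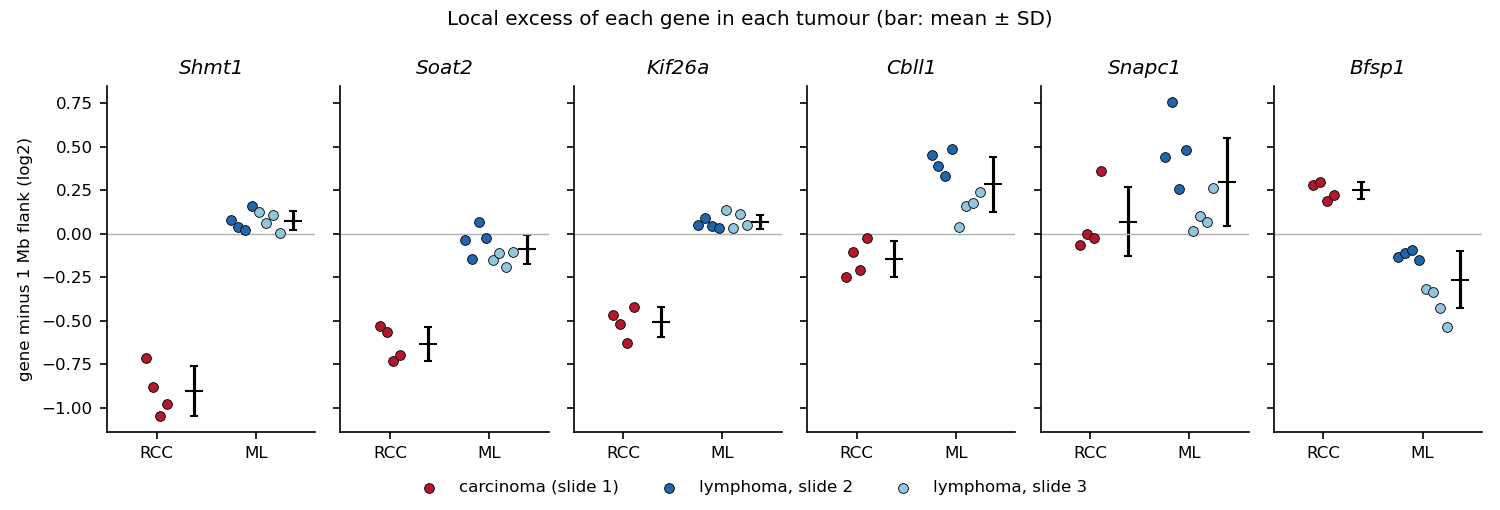
Local excess of the 6 genes (vertical axis, log2, gene minus the 1 Mb flank) in each of the 4 carcinomas (RCC) and 8 lymphomas (ML), coloured by slide, with the mean and SD of each group as a bar. Shmt1, Soat2, Kif26a and Cbll1 had all carcinomas below all lymphomas and Bfsp1 had all above, slide 3 lymphomas lay below slide 2 lymphomas at Cbll1 and Bfsp1, and in Snapc1 the groups overlapped. The genes were chosen from this contrast, so the lack of overlap is a description only, and no share of all genes was counted. Over single autosomal probes, a different unit from gene means, 1.65% had all carcinomas below and 3.27% all above. All slide 3 lymphomas lay below all slide 2 lymphomas at 13.6% of probes.

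**Figure D2:**
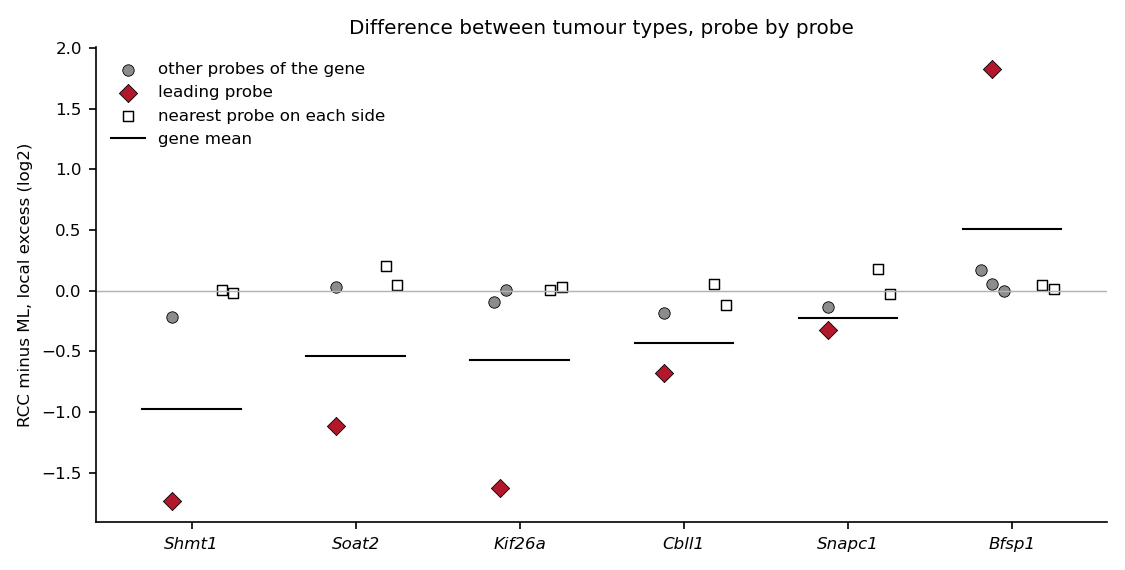
Difference in local excess between carcinomas and lymphomas (vertical axis, log2) at every probe of the 6 genes, with the leading probe as a diamond, the other probes of the gene as filled circles, the nearest probe on each side of the gene as open squares and the gene mean as a line. The leading probes ran from -1.73 at Shmt1 to 1.83 at Bfsp1, while all other probes shown lay between -0.22 and 0.21.

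Without its leading probe each gene lost most of its difference, except Snapc1. The remaining probes differed by -0.22 in Shmt1, 0.03 in Soat2, -0.05 in Kif26a, -0.18 in Cbll1, -0.13 in Snapc1 and 0.07 in Bfsp1. This leave-out was chosen after the probe values were seen. The leading probe is by definition the one with the largest difference, so a smaller remainder follows in part from that definition. Of the 15 probes, 3 had all carcinomas below all lymphomas, the leading probes of Shmt1, Soat2 and Kif26a, and 1 had all carcinomas above all lymphomas, that of Bfsp1. Over all autosomal probes with values on every array, 1.65% had all carcinomas below and 3.27% had all carcinomas above all lymphomas. The genes were chosen from this contrast, so the comparison of these shares says nothing about them.

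The 2 colours separated the shifts into different kinds of reading. With the flank subtracted in each colour, the leading probe of Shmt1 differed by -1.67 in red, the tumour DNA, and by 0.05 in green, the reference DNA, between carcinoma and lymphoma arrays. Its red signal was 1811, 1546, 1284 and 1369 in KO1080, KO1097, KO1134 and WT1179, against 4308 to 5339 in lymphomas, while its green signal was 4574 to 4864 on carcinoma arrays and 4020 to 5401 on lymphoma arrays. Kif26a had a difference of -1.38 in red and 0.29 in green, and a red signal of 381, 321, 367 and 262 in those carcinomas against 984 to 1319 in lymphomas. Soat2 differed in both colours, by -0.63 in red and 0.49 in green.

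Bfsp1 differed in the reference channel. At its leading probe the green signal was 229, 200, 245 and 243 on the arrays of KO1080, KO1097, KO1134 and WT1179, against 2015 to 2387 on lymphoma arrays, although the reference is labelled as the same kind of DNA throughout. With the flank subtracted, the difference was -3.35 in green and -1.46 in red, so both signals were lower on carcinoma arrays and green more so. The red signal was 395 to 495 in carcinomas, 1896 to 2087 in lymphomas of slide 2 and 442 to 954 in those of slide 3. Green differed little between slides 2 and 3, with means of 2329 and 2157.

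**Figure D3:**
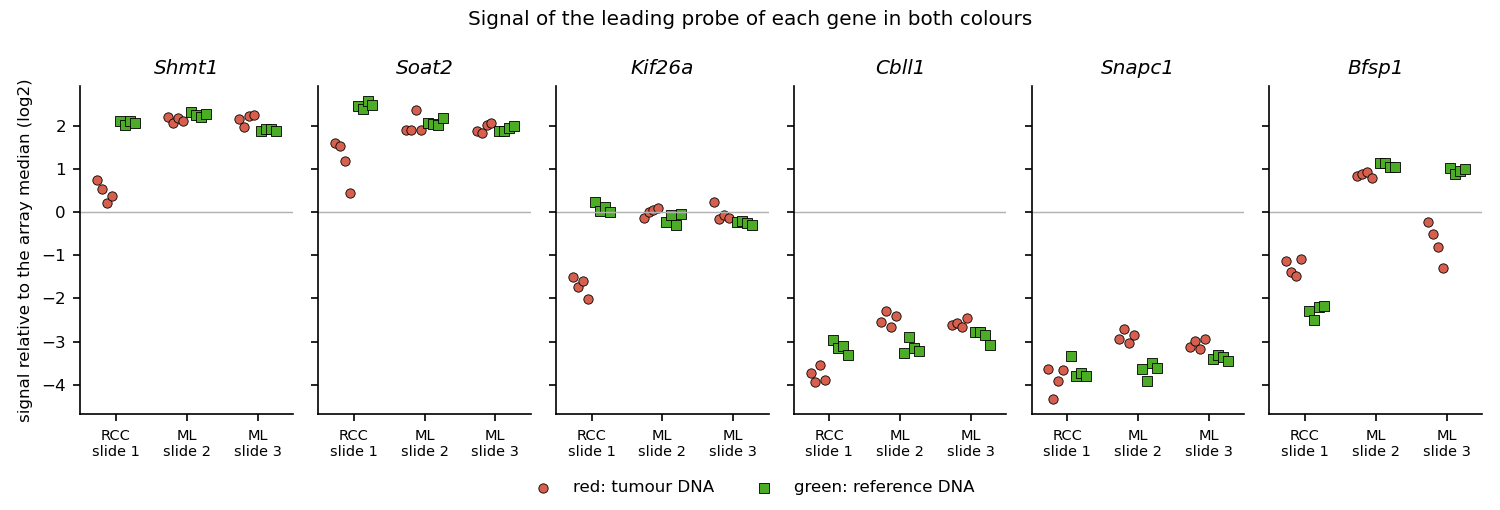
Processed signal of each leading probe relative to the array median (vertical axis, log2) on every array, by slide, with red circles for tumour DNA and green squares for reference DNA. At Shmt1, Soat2 and Kif26a the red signal is lower on carcinoma arrays than on lymphoma arrays and the green one is not, both are far below the array median at Cbll1 and Snapc1 on every slide, and the green signal of Bfsp1 averages -2.29 on carcinoma arrays and 1.02 on lymphoma arrays.

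Cbll1 and Snapc1 rest on dim probes. The mean log2 signal of both colours was 7.11 at the leading probe of Cbll1 and 6.68 at that of Snapc1, within the dimmest 0.381% of probes, and each had 1 of 12 spots not well above background, on the arrays of KO1080 and KO1097. The companion probe of Shmt1 was as dim, at 7.10. Among the dimmest 0.5% of autosomal probes, 806 in number, the median difference between carcinomas and lymphomas was -0.21, with a 5th to 95th percentile range of -0.57 to 0.08, against a median of -0.003 over all probes. The differences of -0.33 at Snapc1 and -0.22 at Shmt1's companion lay inside that range and the -0.68 of Cbll1 lay below it. Between slide 3 and slide 2 lymphomas the median difference in these dim probes was -0.34. The part of dimness in the shifts was not tested further.

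The leading probes of Shmt1 and Soat2 were among the brightest on the array, at percentiles 97.9 and 98.5 of signal, and those of Kif26a and Bfsp1 were near the middle, at 37.7 and 41.6. Across 161099 probes on the same arrays, the difference between tumour types correlated with mean signal at a Pearson r of 0.42. Its median ran from -0.11 in the dimmest eighth of probes to 0.07 in the brightest. The leading probes of Shmt1 and Soat2 differed by -1.73 and -1.12, and the part of signal level in these shifts was not tested. With GC content the correlation of the difference over all these probes was 0.02. The leading probes held 35% GC at Shmt1, 38.3% at Soat2, 43.6% at Kif26a and 36.7% at Cbll1, Snapc1 and Bfsp1, where the median probe held 36.7%. The Kif26a probe stood apart from the rest in both composition and length, with 55 bases against 60 in the other leading probes and a GC content at percentile 99.8.

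**Figure D4:**
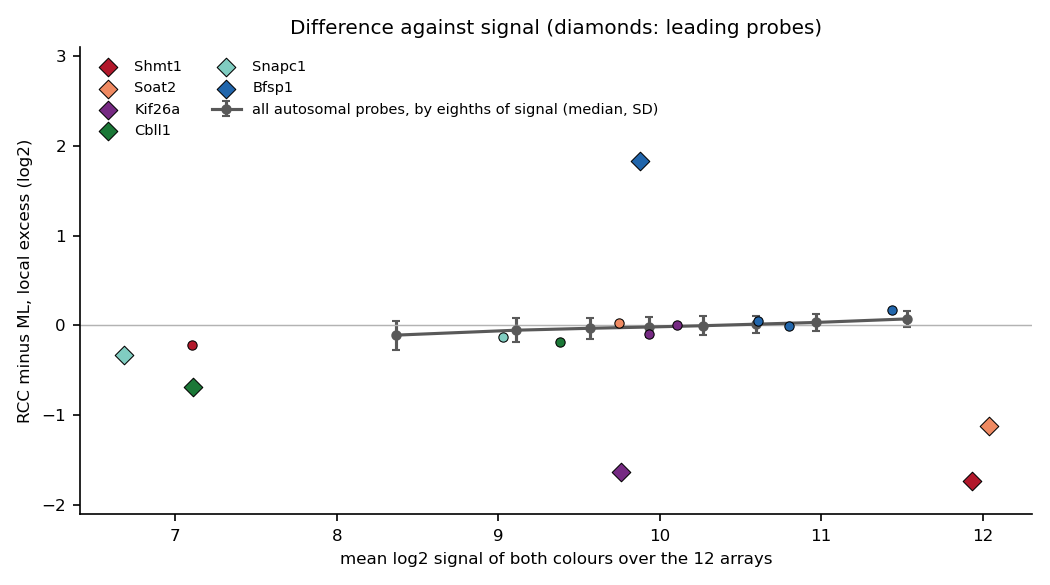
Difference in local excess between carcinomas and lymphomas (vertical axis, log2) against mean log2 signal of both colours (horizontal axis) for the 15 probes of the 6 genes, with leading probes as diamonds, and for all autosomal probes as the median and SD within eighths of signal. All 6 leading probes lie outside the bar of their eighth of signal, those of Cbll1 at -0.68 and Snapc1 at -0.33 in the dimmest eighth. Among the dimmest 0.5% of probes, which are nearer in signal, the 5th to 95th percentile range of -0.57 to 0.08 includes Snapc1 and not Cbll1.

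Sequence words and array position were also described. The words AGCT and GTAC, where the enzymes AluI and RsaI cut, were in 0 and 3 of all autosomal probes, so their absence from the 15 probes sets nothing apart. The word CG was in 4 of the 6 leading probes, those of Soat2, Kif26a, Cbll1 and Bfsp1, and in 3 of the other 9, against 36.1% of all autosomal probes. All 3 words read alike on either strand. The leading spots lay between row 161 at Kif26a and row 902 at Cbll1 of 1064 rows. Those of Kif26a and Shmt1, at row 371, shared column 48 of 170, and the others lay in columns 158 (Soat2), 4 (Cbll1), 136 (Snapc1) and 7 (Bfsp1). The 41 to 45 other probes within 3 rows and 3 columns of each spot had median differences between -0.03 and 0.02. The single spots around Snapc1 ran from -0.32 to 0.46, the latter larger in size than the -0.33 of Snapc1 itself. Around the other 5 no spot came as far as the leading one, the nearest being -0.34 at Cbll1 against -0.68. The leading probes were picked for their large differences, so the smaller values around them follow from that choice. An effect of array position was not tested.

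Knockout and wild-type tumours were compared because the mice differed in Mutyh, a contrast not used to choose the genes. With limma over all 20282 genes and tumour type and treatment in the model, 0 of the 6 genes passed an adjusted p of 0.05, where 0.113% of all genes did. Differences ranged from -0.05 ± 0.06 (SE) at Cbll1 to 0.08 ± 0.05 (SE) at Bfsp1, all with a limma adjusted p of 1.00, and 0 of the 6 had an unadjusted p under 0.05. Among lymphomas the means for Shmt1 were 0.08 in knockouts and 0.07 in wild types, and for Kif26a they were 0.09 in knockouts and 0.05 in wild types.

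Fe-NTA-treated tumours were compared with untreated ones in the same model, where all untreated tumours were lymphomas. Of the 6 genes, 1 passed with a higher value, Bfsp1, where 3.35% of all genes were called higher. Bfsp1 rose by 0.26 ± 0.05 (SE) with a limma adjusted p of 0.0272, with means of -0.16 in the 5 treated lymphomas and -0.43 in the 3 untreated ones. Slide moved with it: with slide as a block the difference was 0.11 ± 0.07 (SE), with a limma adjusted p of 0.797. Slide 3 held both arms, and there WT1121, which was treated, had -0.34, against -0.32, -0.43 and -0.54 in KO1414, WT1405 and WT1420, which were not. The call was also lost without any 1 of the lymphomas KO1077, KO1111, KO1414, WT1113, WT1114 and WT1420, with limma adjusted p-values from 0.0519 to 0.116, and with the median of the whole chromosome as flank, with 0.0597, and with the median of the 4 probes in place of their mean the difference was -0.08. Cbll1 and Snapc1 had differences of 0.22 ± 0.08 and 0.29 ± 0.14 (SE), with limma adjusted p-values of 0.0996 and 0.195. With slide as a block the differences were -0.02 and -0.04, with limma adjusted p-values of 0.973 and 0.980. Cbll1 passed without WT1121, at 0.28 with a limma adjusted p of 0.00674, but WT1121 was the treated lymphoma of slide 3, so that without it treatment and slide cannot be told apart among lymphomas.

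The same profile over the 12 tumours recurred at probes elsewhere in the genome. These correlations span both tumour types, whose means differ, so probes alike to one that separates the types tend to separate them too. How many of them differed by at least 0.5 therefore follows in part from the selection, and no other probes were counted for comparison. A correlation of at least 0.95 with the leading probe of Shmt1 was found at 100 other autosomal probes, of which 94 differed by at least 0.5 between the tumour types, on 18 chromosomes. The counts were 88 and 83 for Soat2, 96 and 91 for Kif26a and 35 and 25 for Bfsp1, while of the 11 probes like Cbll1 and the 39 like Snapc1, 0 differed by that much. Among genes with at least 2 probes on another chromosome or over 5 Mb away, Bcl7b on chromosome 5 was the most like Shmt1, with a Pearson r of 0.99 over 12 arrays, followed by Kif26a and the transcript ENSMUST00000149472 on chromosome 4, both with an r of 0.98. Kif26a was closest to Shmt1, Prr12 and Bcl7b, and Soat2 to Fam63b, ENSMUST00000138291 and Bcl7b, with r between 0.97 and 0.98. Cbll1 was closest to Mthfd2, Galnt7 and AK142058 (0.96), Snapc1 to Tmc2, Htt and Trpv6 (0.95 to 0.96), and Bfsp1 to AK038791, AK186370 and ENSMUST00000087866 (0.96 to 0.98).

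Among the 12502 genes with at least 2 probes, Shmt1 ranked 3 from the lowest difference between carcinomas and lymphomas, Kif26a 10, Soat2 13, Cbll1 27 and Snapc1 100, and Bfsp1 ranked 3 from the highest. Among the other genes that passed limma's adjusted p of 0.05, the lowest were Psmd9 at -0.97, Bcl7b at -0.86, ENSMUST00000149472 at -0.79 and Fgfr4 at -0.66. The highest were AK038791 at 0.78, BC052520 at 0.56, Fbxo33 at 0.48 and 1700025K23Rik at 0.39. Psmd9 encodes a chaperone of proteasome assembly and Fgfr4 a fibroblast growth factor receptor. In each of these other 8 genes 1 of 2 probes carried the difference, as in Psmd9 with -1.82 and -0.11, Bcl7b with -1.82 and 0.10 and AK038791 with 1.64 and -0.08.

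Genes that share a role with the 6 were counted for comparison. The lists were chosen with earlier results of these data known, and cover one-carbon folate metabolism, sterol esters and cholesterol, the snRNA activating complex with RNA polymerase III, m6A writers, readers and erasers, kinesins, and lens and intermediate filaments. Of their 107 other measured genes, 10 passed between carcinomas and lymphomas, 4 higher and 6 lower, or 9.35%, where 13.6% of all genes did. Their median differences by list lay between -0.05 and 0.01, against -0.01 over all genes. All carcinomas lay on slide 1, so slide and tumour type cannot be told apart in any of the 10. In folate metabolism 2 of 19 passed. Mthfd2, the mitochondrial methylenetetrahydrofolate dehydrogenase, had means of -0.18 in carcinomas and 0.06 in lymphomas. Its difference with genotype and treatment in the model was -0.29 ± 0.05 (SE), with a limma adjusted p of 0.00589. Atic, a purine synthesis enzyme, was higher by 0.21 ± 0.06 (SE) in that model, with a limma adjusted p of 0.0342. The others that passed were Dgat2 and Ythdf1, higher in the sterol and m6A lists, Polr3f, a subunit of RNA polymerase III, lower, the kinesins Kif5b, Kif2c and Kif13a, lower, the muscle filament gene Des, higher, and the glial filament gene Gfap, lower. Of the genes that passed, Atic, Ythdf1, Polr3f, Des and Gfap were each read by 1 probe only. The other 14 of the 15 sterol genes, Soat1 and Lcat among them, did not pass. Between genotypes 0 of the 107 passed, and between treatments 5 did, where 6.4% of all genes passed in either direction: Folr1, Kif2c and Ina were higher and Kif21b and Kif22 lower in treated tumours. With slide as a block, limma called 0 of these 5, and 1, Ina, had an unadjusted p under 0.05. Ina was read by 1 probe only.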

How the data were processed

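Per the labels, tumour DNA (Cy5, red) and C57BL/6 normal kidney DNA (Cy3, green) were hybridised to Agilent arrays, 1 per tumour. The deposited intensity values are, per the file headers, processed signals of Feature Extraction 10.7.1.1 (10.7 in the submitters' processing notes), background-subtracted, detrended and dye-normalized with the linear method, and Agilent's deposited log10 ratio is that of red over green. The series-wide table, deposited as log2 ratios, correlated with the scanner values at 0.9999 or more on each array. Its column medians, between -0.02 and 0.02, show that it is near 0, and its centring is not stated. Probe positions are mm9, per the file headers.

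The log2 of red over green was taken for 161460 autosomal probes, outlier spots were left out, and each array was centred on its median. The median of at least 10 probes within 1 Mb outside the gene was then subtracted. A 1 Mb flank was kept, and 0.5 Mb, 2 Mb and the whole chromosome were alternatives. Gene means entered a linear model in limma 3.58.1 (lmFit, eBayes; R 4.3.3), with tumour type, genotype and treatment as terms and Benjamini-Hochberg adjustment over 20282 genes. Both steps were tested on simulated data. Other alternatives were normexp background correction (offset 50), the series table, outlier spots kept, dim probes left out, loess on signal or GC, genes with at least 2 probes, the median of probes, slide as a block, the replicate number as a block, treated tumours only, and each tumour left out.

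The members and lists were chosen with earlier results of these data known. Genes named are the 6 members with all their probes and nearest outside probes, the 3 genes most correlated with each, the 5 lowest and 5 highest differences among called genes of at least 2 probes, and list genes that passed.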

Additional observations from a re-analysis of the deposited data

Results flagged for a closer look

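In 42 groups of member values, 3 held a tumour far from the others of its group. Chance gives such a gap in about 1 of 20 groups. At Snapc1 the carcinoma WT1179 had a gene mean of 0.36, and the next highest carcinoma had 0.00. Before the flank was subtracted the gene read -0.37 in WT1179, inside the -0.65 to -0.26 of the other carcinomas. Its flank, at -0.74, was the lowest of the carcinomas. At the leading probe of Snapc1, at 75075282, WT1179 had an excess of 0.80 and the next highest carcinoma 0.07. The gap in excess is thus that of 1 probe, which is among the dimmest on the array. Before subtraction that probe read 0.07 in WT1179 and -0.64 to -0.23 in the other carcinomas. At the other probe of Cbll1, at 32183054, the lymphoma WT1420 had -0.11 and the next lowest lymphoma 0.07.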

How the results depend on the processing

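Between knockouts and wild types, the count of 23 called genes stayed between 17 and 26 over all alternatives, and 0 members were called in any. The 2764 genes called between carcinomas and lymphomas fell to 1227 with the whole chromosome as flank, 1379 with normexp, 1335 with loess on signal, 1639 with genes of at least 2 probes and 143 with slide as a random block, and ranged from 905 without KO1077 to 5304 without WT1121. The 1298 genes called between treated and untreated tumours fell to 77 with the whole chromosome, 422 with loess on signal, 740 with genes of at least 2 probes and 17 with slide as a block, and ranged from 0 without KO1414, where limma gave 3920 genes an unadjusted p under 0.05, to 4639 without WT1121. The causes were not tested. The replicate block on the numbers in the titles left 207 called genes between tumour types. The numbers pair no samples by the labels, and the block was fitted for tumour type only.

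Between carcinomas and lymphomas the members kept their sign except Cbll1 at 0.012 and Snapc1 at 0.12 with normexp, and Soat2 at 0.032 without its leading probe. Differences that changed in size were Kif26a at -0.70 with normexp, Cbll1 at -0.18 and Snapc1 at -0.13 without dim probes, Snapc1 at -0.10 with loess on signal, Kif26a at -0.15 and Bfsp1 at 0.13 with the median of probes, and Soat2 at -0.82 with the whole chromosome. Between treatments 5 of the 6 members turned sign under at least 1 alternative: Bfsp1 was -0.081 with the median of probes, Cbll1 -0.023 and Snapc1 -0.038 with slide as a block. Between genotypes 4 of the 6 turned, among them Cbll1 at 0.041 without dim probes. Leaving out each tumour kept Shmt1 between -1.04 and -0.93, Soat2 between -0.58 and -0.51, Kif26a between -0.60 and -0.54, Cbll1 between -0.47 and -0.40, Snapc1 between -0.33 and -0.16 and Bfsp1 between 0.47 and 0.54. Low signal limits Cbll1 and Snapc1, and 12 arrays limit all group values.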

Other observations

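Single probes with shifts as large as those of Shmt1, Soat2, Kif26a and Bfsp1 were counted over the genome after the member values had been seen. Outside chromosome 4, 68 probes were lower by at least 1 in carcinomas with all carcinomas below all lymphomas, on 17 chromosomes, and 21 were higher by at least 1 with all carcinomas above, on 13. Of the 68, 58 had both neighbouring probes within 0.3 of no difference, and so did all 21 of the others. Red moved more than green at 67 of the 68, and green more than red at all 21. Over all 161099 probes red moved more at 97751 and green at 63348. Carcinoma KO1134 was the lowest of the carcinomas at 32 of the 68 and WT1179 at 22. Over all 161099 probes KO1134 was the lowest at 42481 and WT1179 at 46973. At 10 of the 21 all slide 3 lymphomas lay below all slide 2 lymphomas, or 47.6%. That order was held by 13.6% of all probes and 3.76% of those with all carcinomas above all lymphomas. The 21 were picked by a large difference, so neither share is a like background. The opposite order was held by 12 of the 68, or 17.6%, and by 14.2% of all probes. The leading probes of Shmt1, Soat2 and Kif26a are among the 68 and that of Bfsp1 is among the 21.

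Over all 161099 probes, green was lower by at least 1 on carcinoma arrays at 507, and at 367 of these red was lower by at least 1 as well, the leading probe of Bfsp1 among them. Red was lower by at least 1 with green within 0.3 at 78 probes, those of Shmt1 and Kif26a among them. Red was lower by at least 1 on slide 3 than on slide 2 lymphoma arrays, with green within 0.3, at 45 probes, again with that of Bfsp1.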
